A study of Rattus norvegicus with 12 samples.

Results

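The 42 genes described here encode proteins that move a cell through DNA replication and mitosis, together with the D and E cyclins and E2f1, which act before S phase. They were looked up by symbol in the annotation of the array, where the probe set of highest mean stood for a gene with several, and 38 of the 42 were measured among 14506 genes with a symbol. Mcm3 and Mcm4 encode subunits of the replicative helicase, Cenpf a kinetochore protein and Mki67 the proliferation antigen Ki67. No probe set carried the symbol of any of these genes, alone or among several, and they were not analysed here. The tissue was the corpus luteum (CL) of pregnant Wistar rats, and RNA of 1 rat was hybridised to each of 12 Affymetrix Rat Gene 1.0 ST arrays, with 3 rats in each of 4 groups. The first group was untreated and was sampled on day 12 of pregnancy (D12). The other groups were sampled on day 16, after 96 h of treatment that began on day 12. One received the vehicle (VEH). Another received anastrozole, an inhibitor of aromatase, the enzyme that makes estradiol (E2), at 1 mg/kg per day by mouth (AI). The last received the same inhibitor and E2, which the labels give as 10 µg per day by subcutaneous injection (AI+E2). The dose reached the whole animal, so that the groups are not models of a loss of E2 in the CL alone.

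Cyclins are the regulatory partners of the cyclin-dependent kinases. D and E cyclins bring a cell out of G1, cyclin A accompanies DNA replication, and cyclin B with CDK1 starts mitosis, when Aurora and Polo kinases, kinesins and condensed chromosomes form the spindle and separate the daughter cells. In the rat CL the granulosa cells leave the cycle as they luteinise. Arrays of whole tissue do not show which cells of the CL still divide during pregnancy.

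The values are log2 signals normalized by RMA, so that a difference of 1 is a doubling. Differences were tested with limma over all 12 arrays, with p values adjusted after Benjamini and Hochberg across 14506 genes, and a gene is said to have risen or fallen where the adjusted p was under 0.05. The arrays held luteal RNA by its markers. The 8 measured luteal markers, among them Star, Cyp11a1 and Lhcgr, each had a mean signal at or above that of 94.9% of all genes tested. The cell cycle probe sets were dim. Of the 38, 30 had a mean signal below the median of all genes tested and 10 were among the lowest 25%, although signals of different probe sets are not on one scale and the file gives no call of detection. Melk, a kinase of dividing cells, had the lowest mean (4.92) and Ccnd2 the highest (10.98). Within a group, the median correlation of an array with the others was 0.992 to 0.998.

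Genes of this kind are often controlled through short promoter elements. These are the cell cycle homology region (CHR), spelled TTTGAA, to which the MuvB complex binds, the CCAAT box, to which NF-Y binds, and E2F sites, searched as TTTCCCGC, TTTGGCGC, TTTGCCGC and TTTCGCGC. The promoters of the 4 members with the smallest p in the comparison of VEH with D12 among those with a RefSeq entry are shown to let a reader see these elements. Each covers 250 bases before and 50 bases from the start of the gene on build GRCr8, 5′ to 3′ on the strand of the gene, with matches on either strand in capitals. Cdk1 is at chr20:19265043-19265342 on the + strand, Top2a at chr10:84473044-84473343 on the - strand, Kif11 at chr1:244536617-244536916 on the + strand and Ccnb2 at chr8:79981609-79981908 on the - strand.
Cdk1: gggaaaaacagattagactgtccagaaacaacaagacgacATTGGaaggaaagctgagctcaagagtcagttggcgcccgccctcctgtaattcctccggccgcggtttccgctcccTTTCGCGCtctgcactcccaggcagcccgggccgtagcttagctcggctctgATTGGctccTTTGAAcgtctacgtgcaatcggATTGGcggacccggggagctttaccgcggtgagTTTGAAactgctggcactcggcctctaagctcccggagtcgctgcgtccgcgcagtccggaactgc
Top2a: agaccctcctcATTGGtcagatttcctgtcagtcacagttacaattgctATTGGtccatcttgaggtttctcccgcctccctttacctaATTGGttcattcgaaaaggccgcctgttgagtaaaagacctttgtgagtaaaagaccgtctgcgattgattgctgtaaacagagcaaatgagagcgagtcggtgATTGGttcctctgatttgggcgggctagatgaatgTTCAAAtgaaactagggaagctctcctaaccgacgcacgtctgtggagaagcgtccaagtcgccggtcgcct
Kif11: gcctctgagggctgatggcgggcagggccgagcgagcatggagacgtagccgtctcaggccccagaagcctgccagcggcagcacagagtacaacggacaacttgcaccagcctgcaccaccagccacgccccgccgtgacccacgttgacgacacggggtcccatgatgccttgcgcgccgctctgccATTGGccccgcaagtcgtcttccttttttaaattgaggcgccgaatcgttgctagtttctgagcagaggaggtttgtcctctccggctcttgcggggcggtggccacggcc
Ccnb2: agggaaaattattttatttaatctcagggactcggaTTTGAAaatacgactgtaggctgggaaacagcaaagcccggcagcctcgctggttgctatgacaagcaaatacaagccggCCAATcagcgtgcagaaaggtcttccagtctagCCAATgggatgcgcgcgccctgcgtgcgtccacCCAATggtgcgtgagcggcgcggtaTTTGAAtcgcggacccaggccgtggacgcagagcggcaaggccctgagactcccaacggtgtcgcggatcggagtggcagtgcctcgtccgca
The Cdk1 promoter held 2 CHR, 3 CCAAT and 1 E2F matches, that of Top2a 1 CHR and 4 CCAAT, that of Kif11 1 CCAAT and that of Ccnb2 2 CHR and 3 CCAAT. Promoters of 31 of the 42 genes were in the RefSeq table, 28 of them of measured genes. Of these 28, 13 (46.4%) held a CHR match, 20 (71.4%) a CCAAT match and 7 an E2F match on either strand. Among all 33469 promoters of the table the shares were 18.3%, 37.5% and 2.14%, and among the 11968 of genes tested they were 15.2%, 38.3% and 3.08%. No spelling lies within another. The median log2 difference between VEH and D12 was 0.18 over the 13 members with a CHR match and 0.13 over the 15 without, 0.19 over the 20 with a CCAAT match and 0.13 over the 8 without, and 0.081 over the 7 with an E2F match and 0.18 over the 21 without. A match is a string of letters and not a bound site.

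Across the 4 groups, the mean over the 38 genes was 6.31 to 6.42 on the D12 arrays, 6.53 to 6.60 on the VEH arrays, 6.46 to 6.57 on the AI arrays and 6.43 to 6.47 on the AI+E2 arrays. D12 lay below every other array. VEH had the highest group mean for 24 of the 38 genes, AI for 12 and AI+E2 for 2, whereas D12 had the lowest for 24. This order was not counted over all genes, so that it is not read as particular to the set. In total 19 genes passed the test in at least 1 of 6 comparisons and 19 in none, where 29.8% of all genes tested passed in at least 1. The 38 genes gave 37 calls in 228 tests, and over all genes 12.1% of the tests gave a call. Of the 37, 21 passed in each of the 6 fits that left out 1 array of the groups compared, 6 were lost in 1 to 3 of them and 10 in 4 or more. The changes were small. Of 37 calls, 4 reached 1.5-fold and 1 reached 2-fold, and the smallest was 1.13-fold. The arrays of a group were not alike across the set. D12 replicate 2 was the lowest of its group for 27 of the 38 genes, AI replicate 3 for 22 and VEH replicate 3 for 22.

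**Figure D1:**
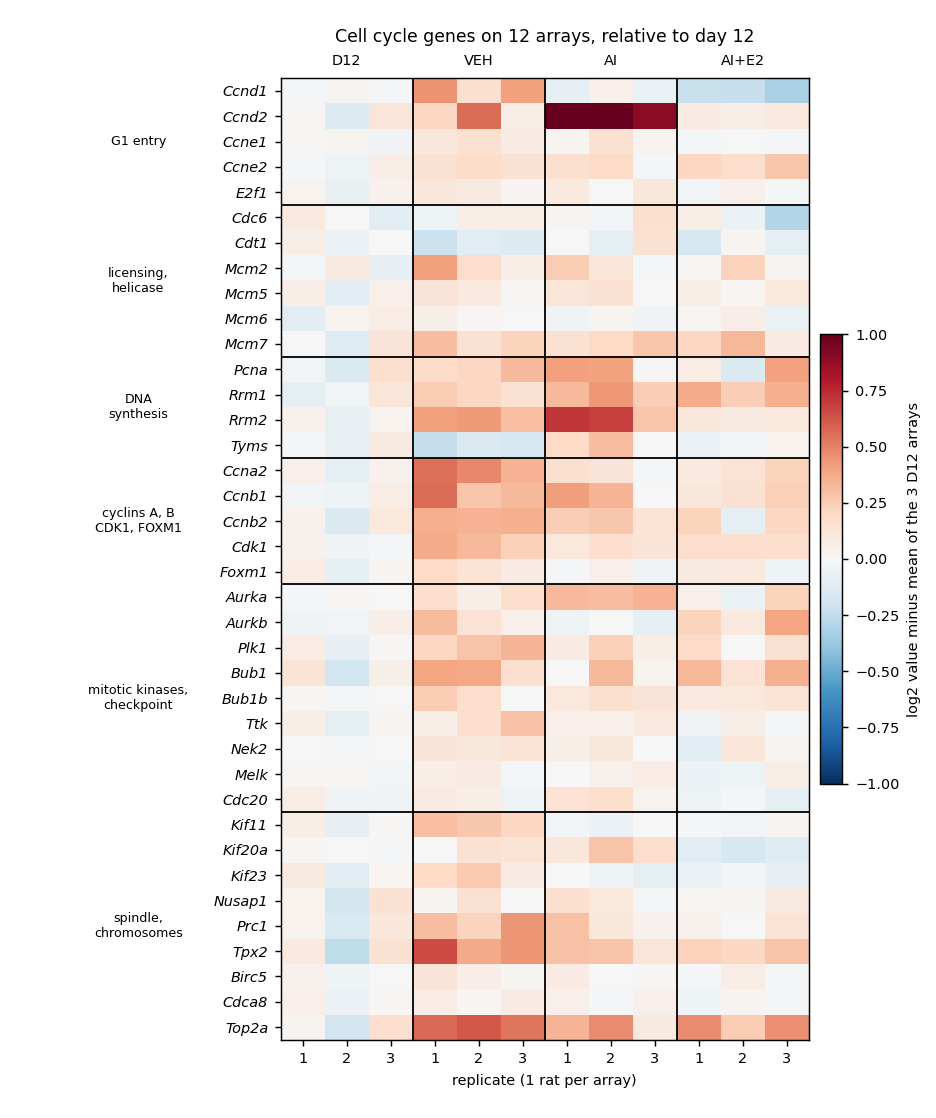
Log2 value of 38 cell cycle genes (rows, ordered by role) on 12 arrays (columns, replicates 1 to 3 of D12, VEH, AI and AI+E2), minus the mean of the 3 D12 arrays of that gene, with values beyond 1 in the end colour. The VEH columns are red for most of the cyclin A and B and spindle genes, and Ccnd2 is darkest in the 3 AI columns.

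Between day 12 and day 16 with VEH, Ccna2, Ccnb1, Ccnb2, Cdk1, Top2a, Tpx2, Kif11, Prc1, Plk1, Rrm2 and Ccnd1 rose in the CL. The D12 rats were untreated and the VEH rats had 96 h of vehicle. The day of pregnancy and the dosing thus cannot be told apart, here or in the other comparisons with D12. Of the 38 measured, 11 rose and 0 fell, against 6.91% of all genes tested that rose and 3.23% that fell. At an unadjusted p under 0.05 in limma, 21 were higher and 1 lower, against 12.9% and 9.88% of all genes. The methods' t-test after adjustment gave 1 higher, Nek2, which was not among the 11, and 0 lower. None of the 11 passed that test. The median log2 difference was 0.17, compared to -0.018 over all genes. Of the 38 differences 36 were positive, against 6372 of 14506 over all genes. Among the groups of genes, 4 of 5 in the set of cyclins A and B, Cdk1 and Foxm1 rose, as did 4 of 9 of the spindle and chromosome set, 1 of 9 mitotic kinases and checkpoint genes, 1 of 4 genes of DNA synthesis, 1 of 5 genes of G1 entry and 0 of 6 of licensing and the helicase, where 2 were higher at an unadjusted p under 0.05. Without D12 replicate 2, which had the lowest values of most of these genes, 6 rose. The calls of Rrm2, Ccnb1, Ccnb2, Plk1 and Prc1 were the ones lost.

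Endothelial markers rose from D12 to VEH as well. Of 11 measured, 9 rose between D12 and VEH, with a median log2 difference of 0.38, and 0 fell. Their mean level was 8.47 to 8.62 on D12 arrays and 8.89 to 8.92 on VEH arrays. It was 8.38 to 8.59 with AI and 8.50 to 8.56 with AI+E2, and none of these ranges reached the VEH arrays. Luteal markers had a mean of 11.30 to 11.54 in D12, 11.22 to 11.38 in VEH, 11.51 to 11.64 in AI and 11.57 to 11.63 in AI+E2. From D12 to VEH 1 of 8 of them fell. Among them Inha varied widely within groups, with an SD of 0.82 in D12 and 0.74 in VEH. Fshr of the follicle markers varied too (0.29 and 0.46). Both were lowest of their group on D12 replicate 2 (8.81 and 5.93) and VEH replicate 3 (8.65 and 5.64). In AI both were highest on replicate 3 (10.62 and 7.07). Macrophage markers had a mean of 7.54 to 7.63 in D12, 7.52 to 7.69 in VEH, 7.71 to 7.84 in AI and 7.85 to 7.90 in AI+E2, and 4 of 11 rose in AI and 5 in AI+E2 compared to VEH. Of 8 fibroblast markers, 4 rose and 1 fell from D12 to VEH, with a mean of 8.51 to 8.65 in D12, 8.64 to 8.87 in VEH, 8.59 to 8.78 in AI and 8.75 to 8.80 in AI+E2. From D12 to VEH, 0 of 11 lymphocyte markers passed, with 1 at an unadjusted p under 0.05, and, of 6 markers of erythrocytes, 1 was up and 1 was down. Of 10 follicle markers, 3 fell, Nr5a2, Zp3 and Gdf9. The mean of Nr5a2 (10.72) was at or above that of 98.3% of all genes, as high as those of luteal markers. Those of Zp3 (6.13) and Gdf9 (6.18) were dim. The part of follicles in the 3 falls was not tested. The part of these other cells in the cell cycle differences was not tested, and in RNA of a whole tissue a change in the number of cells of a type and one in the RNA per cell cannot be told apart. On single arrays the levels did not move together throughout. D12 replicate 2 had the lowest cell cycle mean of its group (6.31) and the highest endothelial mean (8.62), while AI replicate 3 had the lowest of both (6.46 and 8.38).

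**Figure D2:**
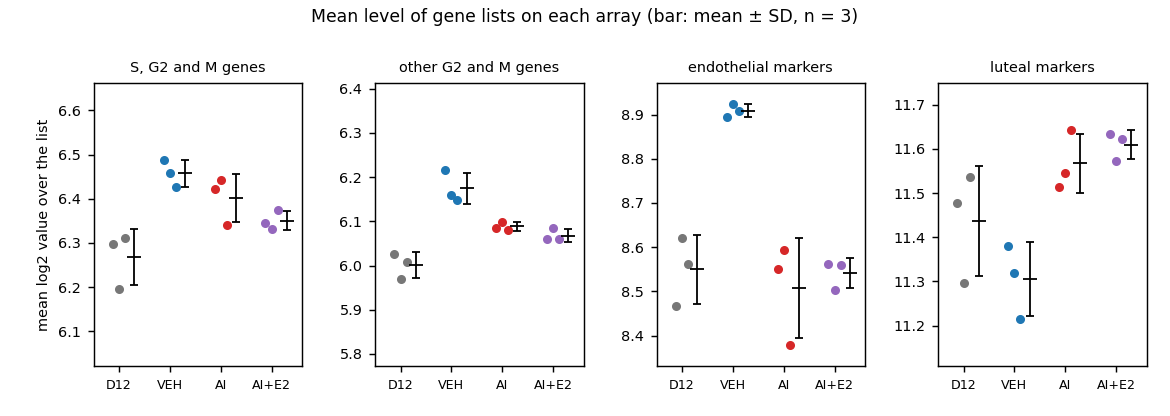
Mean log2 value over 33 of the members (without the D and E cyclins and E2f1), 28 other G2 and M genes, 11 endothelial markers and 8 luteal markers on each array, with points for the 3 rats of a group and bars for the mean and SD. The VEH arrays are above all D12 arrays in the first 3 panels, and the endothelial panel has the widest gap, from 8.62 to 8.89.

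In CL of AI treated rats, compared to VEH, 5 of the 38 genes fell and 2 rose, beside 11.0% of all genes that fell and 5.91% that rose. Those that fell were the cyclin genes Ccna2 and Ccnd1, the mitotic kinase Cdk1 and the kinesins Kif11 and Kif23. Those that rose were Ccnd2 and Tyms, the thymidylate synthase. The median log2 difference over the set was -0.042, compared to 0.013 over all genes, and it was -0.067 after the arrays were centred on their medians. Of the endothelial markers, 9 of 11 fell, with a median log2 difference of -0.44. Of the luteal markers 4 of 8 rose and 1 fell, and 4 of 11 of macrophages and 1 of 10 of follicles rose. Of fibroblasts 1 of 8 rose and 1 fell, and 1 of 6 of red blood cells fell. Of lymphocytes 0 of 11 passed, with 1 lower at an unadjusted p under 0.05. The part of these markers here was not tested. The calls of Cdk1 and Kif23 were each lost in 4 of the 6 fits that left out 1 array.

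In AI+E2 compared to AI, 4 of 38 fell and 1 rose, beside 4.13% of all genes that fell and 8.65% that rose. Ccnd2, Rrm2, Aurka and Kif20a fell and Aurkb rose. The median log2 difference was -0.041, against -0.022 over all genes, and it was -0.011, with 18 positive and 20 negative, after the arrays were centred on their medians. Of the endothelial markers, 0 fell and 0 rose in limma, and at an unadjusted p under 0.05 1 was lower and 2 were higher. Of other markers, 3 of 11 of lymphocytes, 2 of 11 of macrophages, 1 of 8 of luteal cells and 1 of 8 of fibroblasts rose. Of red blood cells 1 of 6 fell, Hbb (-1.04, adjusted p = 0.00353), and 1 of 10 of follicles rose and 1 fell. The part of these markers here was not tested. Aurka lost its call after the arrays were centred on their medians, and without AI+E2 replicate 1 or without AI replicate 1 the number of calls was 3, those of Ccnd2, Rrm2 and Kif20a.

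In AI+E2 compared to VEH, 5 of 38 fell and 0 rose, beside 6.90% of all genes that fell and 6.11% that rose. In limma 14 were lower and 1 higher at an unadjusted p under 0.05, against 12.6% and 11.2% of all genes, and the methods' t-test after adjustment gave 1 lower and 0 higher. Ccnd1, Kif11, Ccna2, Kif20a and Kif23 were the genes that fell. The median log2 difference was -0.12, compared to -0.0064 over all genes. Of the 38 differences 33 were negative, against 7609 of 14506 over all genes. Of the endothelial markers, 7 of 11 fell, with a median of -0.40. Of fibroblast markers 4 of 8 rose and 4 fell, and 3 of 8 of luteal cells and 5 of 11 of macrophages rose. Of follicle markers 2 of 10 rose and 1 fell, 1 of 11 of lymphocytes rose and 2 of 6 of red blood cells fell. The part of these markers in the cell cycle differences was not tested. The calls were 2 (Ccnd1 and Kif11) without AI+E2 replicate 1 and 3 (with Ccna2) without AI+E2 replicate 3.

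Against D12, the treated groups of day 16 gave fewer calls. In AI, 4 genes rose (Ccnd2, Rrm2, Rrm1 and Aurka) and 0 fell, beside 3.30% and 4.27% of all genes. At an unadjusted p under 0.05 in limma 12 were higher and 0 lower, against 8.18% and 10.3% of all genes, and the methods' t-test after adjustment gave 1 higher, Aurka, and 0 lower. Without AI replicate 3, 7 rose, with Tyms, Ccnb1 and Top2a added. In AI+E2, 4 rose (Rrm1, Top2a, Ccne2 and Cdk1) and 1 fell (Ccnd1), beside 7.52% and 4.58%, and without AI+E2 replicate 1, AI+E2 replicate 3 or D12 replicate 2 only the call of Rrm1 was left. Without D12 replicate 1, 2 were left. The median log2 differences were 0.11 for AI and 0.063 for AI+E2, compared to -0.0067 and -0.026 over all genes. The 6 comparisons share arrays and are not independent of each other. Whether a difference between one pair of groups was larger than that between another pair was not tested.

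**Figure D3:**
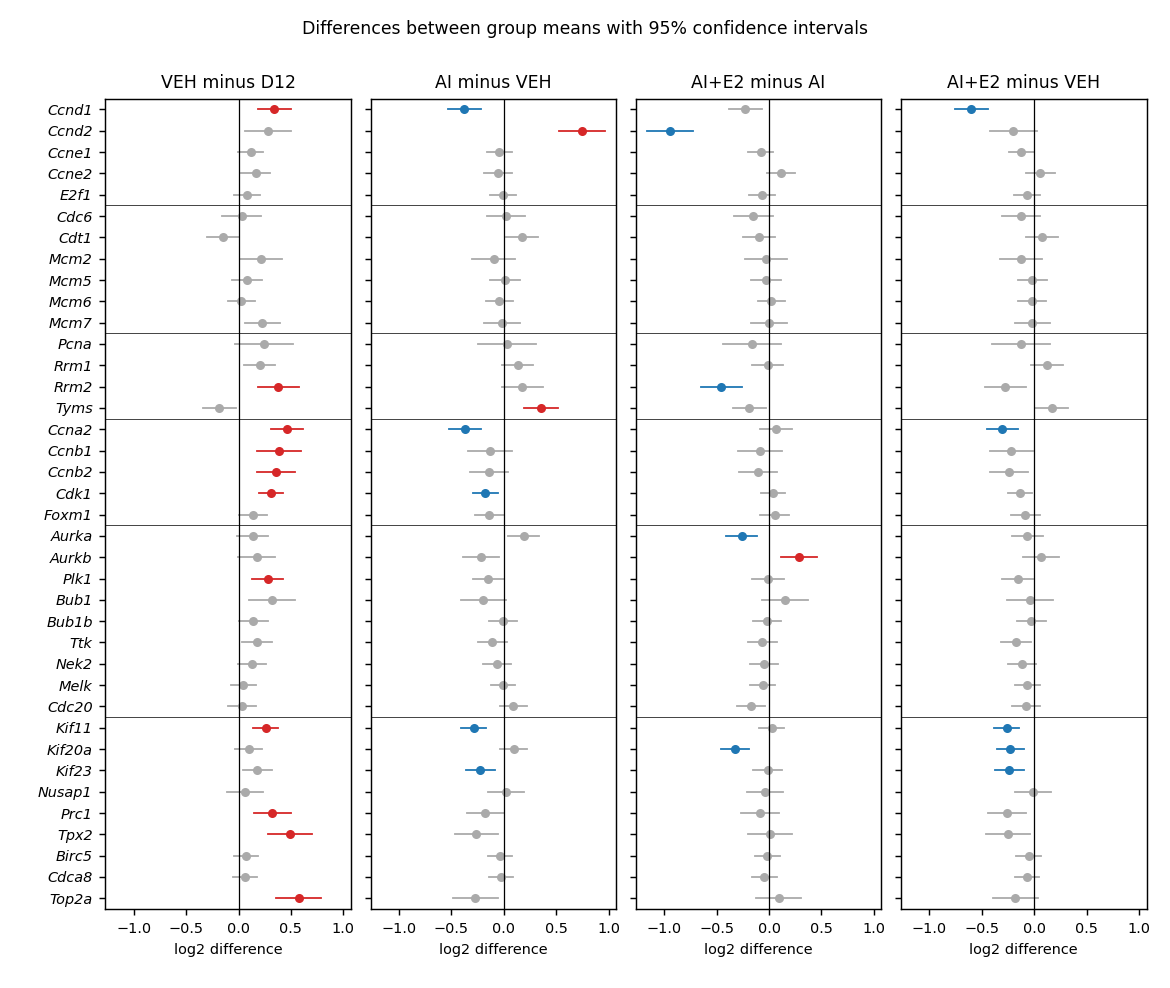
Log2 difference of group means (x axis) for each of 38 cell cycle genes (y axis, ordered by role) in 4 comparisons, with 95% confidence intervals from limma, red where the gene rose, blue where it fell and grey where it did not pass the test. The 11 red points of VEH minus D12 lie between 0.26 and 0.57, and Ccnd2 has the largest differences of AI minus VEH and AI+E2 minus AI.

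Among cyclins A and B and their kinase, Ccna2, the A cyclin of S phase and G2, showed the clearest rise between D12 and VEH. Ccna2 was 6.13, 5.99 and 6.13 on the D12 arrays, 6.64, 6.56 and 6.43 on the VEH arrays, 6.24, 6.21 and 6.07 with AI and 6.18, 6.23 and 6.31 with AI+E2. All VEH arrays were above all others, and the AI arrays overlapped with both D12 and AI+E2. Ccna2 rose from D12 to VEH (log2 difference 0.46, SE 0.071, adjusted p = 6.25e-04), fell in AI compared to VEH (log2 difference -0.37, SE 0.071, adjusted p = 0.00174) and was lower in AI+E2 than in VEH (log2 difference -0.30, SE 0.071, adjusted p = 0.00957). Between AI+E2 and AI it did not pass the test (0.065, 95% confidence interval -0.087 to 0.22). Without AI+E2 replicate 1 the difference between AI+E2 and VEH did not pass either.

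Cdk1, the kinase that starts mitosis, was 5.24, 5.16 and 5.19 in D12, 5.56, 5.52 and 5.43 in VEH, 5.30, 5.37 and 5.32 in AI and 5.37, 5.37 and 5.37 in AI+E2. The VEH arrays were again the highest and the D12 arrays the lowest, with no overlap between either and the treated groups. Cdk1 rose from D12 to VEH (log2 difference 0.31, SE 0.054, adjusted p = 0.00166), and fell in AI compared to VEH (log2 difference -0.18, SE 0.054, adjusted p = 0.0378), while AI+E2 was above D12 (log2 difference 0.18, SE 0.054, adjusted p = 0.0487). Both of the latter calls were lost in a fit of the compared groups alone, and the one against D12 was lost in each of the 6 fits that left out 1 array.

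Ccnb1 and Ccnb2 encode the B cyclins that activate CDK1. Ccnb1 was 6.02, 5.997 and 6.12 in D12, 6.60, 6.33 and 6.37 in VEH, 6.46, 6.39 and 6.05 in AI and 6.16, 6.20 and 6.29 in AI+E2. AI replicate 3 lay among the D12 arrays and the other AI arrays among those of VEH. Ccnb1 rose from D12 to VEH (log2 difference 0.39, SE 0.10, adjusted p = 0.0197), and its difference between AI and VEH did not pass (-0.13, 95% confidence interval -0.34 to 0.075). Ccnb2 was 6.59, 6.40 and 6.66 in D12, 6.92, 6.89 and 6.91 in VEH, 6.79, 6.82 and 6.68 in AI and 6.77, 6.46 and 6.76 in AI+E2, and it too rose from D12 to VEH (log2 difference 0.36, SE 0.085, adjusted p = 0.0144). Its VEH arrays were the highest of the 12, and AI+E2 replicate 2 lay among those of D12. A further probe set of Ccnb2 gave a log2 difference of 0.37 between VEH and D12 (adjusted p = 0.0196 over all probe sets). Foxm1, a transcription factor that activates G2 and M genes, did not pass in any comparison, with log2 differences of 0.14 between VEH and D12 and -0.14 between AI and VEH.

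**Figure D4:**
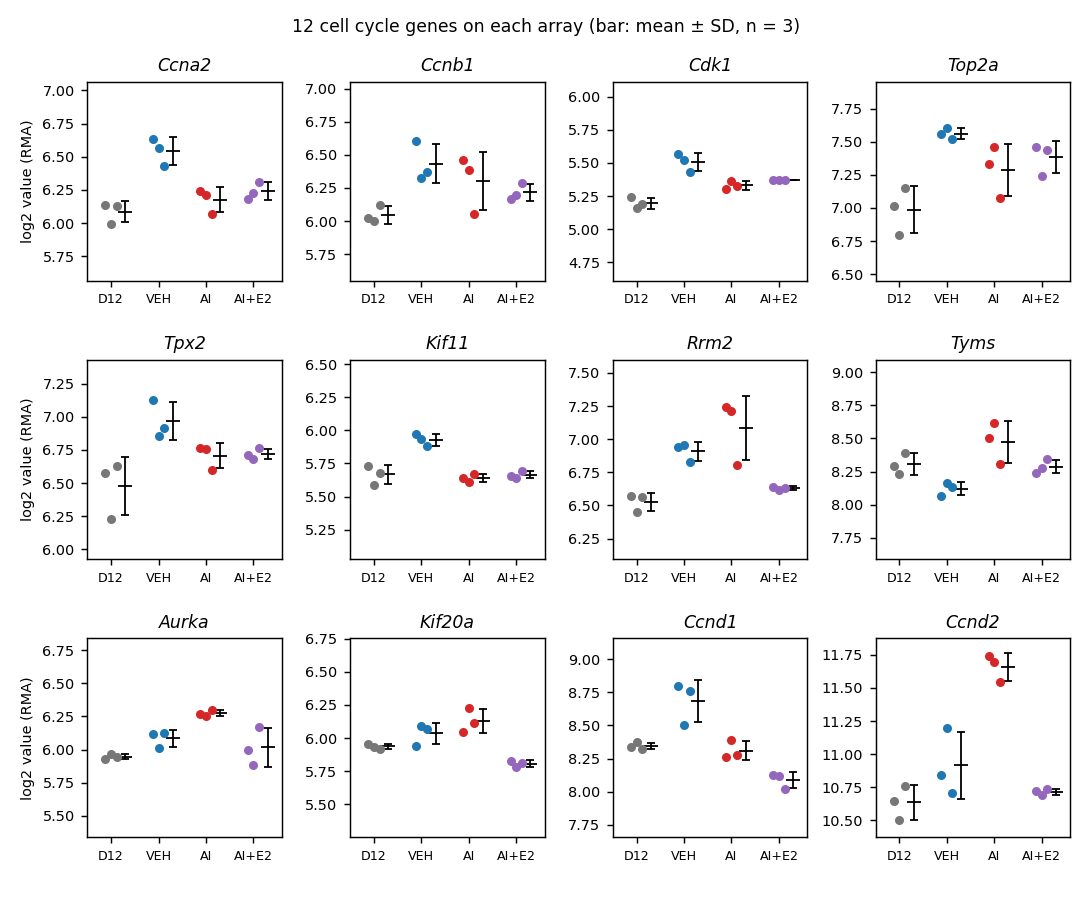
Log2 value of 12 of the genes on each array, with points for the 3 rats of a group and bars for mean and SD, each panel spanning 1.5 log2 units. The VEH points are the highest for Ccna2, Cdk1, Tpx2, Kif11 and Top2a, and the AI points are the highest for Ccnd2, with no AI array below 11.54.

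Of the spindle and chromosome genes, Top2a, the topoisomerase that untangles replicated DNA, had the largest rise from D12 to VEH. Top2a was 7.01, 6.80 and 7.15 in D12, 7.56, 7.61 and 7.52 in VEH, 7.33, 7.46 and 7.08 in AI and 7.46, 7.24 and 7.44 in AI+E2. The VEH arrays were above all others, and AI replicate 3 lay within the D12 range. The rise was 1.49-fold (log2 difference 0.57, SE 0.10, adjusted p = 0.00171), and Top2a was also higher in AI+E2 than in D12 (log2 difference 0.39, SE 0.10, adjusted p = 0.0178). It did not pass between AI and VEH (-0.27, 95% confidence interval -0.49 to -0.056).

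Tpx2, which brings Aurora A to spindle microtubules, was 6.58, 6.23 and 6.63 in D12, 7.13, 6.86 and 6.92 in VEH, 6.77, 6.76 and 6.60 in AI and 6.71, 6.68 and 6.76 in AI+E2, and rose from D12 to VEH (log2 difference 0.49, SE 0.10, adjusted p = 0.00422). Prc1, which bundles the microtubules of the midzone, was 6.57, 6.39 and 6.66 in D12, 6.85, 6.76 and 6.98 in VEH, 6.83, 6.65 and 6.58 in AI and 6.58, 6.55 and 6.67 in AI+E2, and rose as well (log2 difference 0.32, SE 0.084, adjusted p = 0.0225), a call lost in 4 of the 6 fits that left out 1 array. Both had D12 replicate 2 as the lowest of the 12 arrays, and neither passed in the other comparisons, where the smallest adjusted p was that of Prc1 between AI+E2 and VEH (-0.26, adjusted p = 0.0546).

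The kinesin Kif11, which pushes the spindle poles apart, was 5.73, 5.59 and 5.68 in D12, 5.97, 5.93 and 5.88 in VEH, 5.64, 5.61 and 5.67 in AI and 5.66, 5.64 and 5.69 in AI+E2. The VEH arrays stood above all others, and the remaining groups overlapped. Kif11 rose from D12 to VEH (log2 difference 0.26, SE 0.056, adjusted p = 0.00764) and was lower than VEH in both AI (log2 difference -0.29, SE 0.056, adjusted p = 0.00197) and AI+E2 (log2 difference -0.26, SE 0.056, adjusted p = 0.00504). Both differences from VEH passed in each fit that left out 1 array and in the methods' t-test.

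Kif23 and Kif20a are kinesins of cytokinesis. Kif23 was 5.80, 5.61 and 5.73 in D12, 5.91, 5.97 and 5.80 in VEH, 5.71, 5.67 and 5.63 in AI and 5.65, 5.69 and 5.63 in AI+E2. It fell in AI (log2 difference -0.23, SE 0.064, adjusted p = 0.0247) and in AI+E2 (log2 difference -0.24, SE 0.064, adjusted p = 0.0226) compared to VEH, each lost in 4 of the 6 fits that left out 1 array, whereas the VEH and D12 arrays overlapped at 5.80. Kif20a was 5.96, 5.94 and 5.92 in D12, 5.94, 6.09 and 6.07 in VEH, 6.05, 6.23 and 6.12 in AI and 5.83, 5.78 and 5.81 in AI+E2, so that its AI+E2 arrays were below every other array. It fell in AI+E2 compared to AI (log2 difference -0.32, SE 0.061, adjusted p = 0.00203) and compared to VEH (log2 difference -0.23, SE 0.061, adjusted p = 0.0209), the latter lost in 5 of the 6 fits that left out 1 array, and its difference between AI and VEH did not pass (0.095, 95% confidence interval -0.036 to 0.22). Nusap1, Birc5 and Cdca8, which act at the spindle and the centromere, passed in 0 of the 6 comparisons in limma, where 0 had an unadjusted p under 0.05, and 0 were called by the methods' t-test. Their differences ran from -0.071 to 0.084.

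Of 9 mitotic kinases and checkpoint genes, 3 passed in at least 1 comparison, a share near the 29.8% of all genes. Plk1, the Polo kinase, was 6.40, 6.24 and 6.34 in D12, 6.53, 6.61 and 6.66 in VEH, 6.41, 6.56 and 6.40 in AI and 6.52, 6.33 and 6.48 in AI+E2. It rose from D12 to VEH (log2 difference 0.28, SE 0.070, adjusted p = 0.0203), with AI replicate 2 in the range of VEH and AI+E2 replicate 2 in that of D12.

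Aurka, the Aurora kinase of the spindle poles, was 5.93, 5.97 and 5.95 in D12, 6.12, 6.01 and 6.13 in VEH, 6.27, 6.26 and 6.30 in AI and 5.99, 5.88 and 6.17 in AI+E2. The AI arrays were above all others. Aurka was higher in AI than in D12 (log2 difference 0.33, SE 0.069, adjusted p = 0.00773) and fell in AI+E2 compared to AI (log2 difference -0.26, SE 0.069, adjusted p = 0.0208), the latter lost in 4 of the 6 fits that left out 1 array, and the difference between AI and VEH did not pass (0.19, adjusted p = 0.0748). Aurkb, the Aurora kinase of the centromere and the midzone, was 6.02, 6.03 and 6.13 in D12, 6.37, 6.20 and 6.11 in VEH, 6.01, 6.06 and 5.96 in AI and 6.28, 6.15 and 6.45 in AI+E2. It rose in AI+E2 compared to AI (log2 difference 0.29, SE 0.081, adjusted p = 0.0296), a call that was lost in 4 of the 6 fits that left out 1 array. Bub1, a checkpoint kinase, was 5.25, 4.94 and 5.18 in D12, 5.52, 5.51 and 5.29 in VEH, 5.13, 5.45 and 5.16 in AI and 5.45, 5.27 and 5.47 in AI+E2. Its VEH arrays were all above those of D12, yet the difference missed the threshold (0.32, adjusted p = 0.0607). The kinases Bub1b, Ttk, Nek2 and Melk and the activator of chromosome separation Cdc20 passed in 0 of 6 comparisons in limma. At an unadjusted p under 0.05, Ttk differed in 2 of the 6 comparisons, Bub1b and Cdc20 in 1 each and Nek2 and Melk in 0. Nek2 was the member that the methods' t-test called between VEH and D12 (0.13), and its probe sets held the same values on all 12 arrays, so that they were counted as 1.

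The 4 genes of DNA synthesis and nucleotide supply each had the highest mean in AI, although the arrays of AI overlapped with those of VEH for Rrm2, Pcna and Rrm1 and with those of AI+E2 for Rrm1, Pcna and Tyms. Rrm2, the subunit of ribonucleotide reductase that is made in S phase, was 6.57, 6.45 and 6.56 in D12, 6.94, 6.96 and 6.83 in VEH, 7.24, 7.21 and 6.81 in AI and 6.64, 6.62 and 6.63 in AI+E2. The AI+E2 arrays were narrow and below all AI and VEH arrays, and AI replicate 3 was the lowest of AI and VEH together. Rrm2 rose from D12 to VEH (log2 difference 0.38, SE 0.092, adjusted p = 0.0161) and was higher in AI than in D12 (log2 difference 0.56, SE 0.092, adjusted p = 0.00134). It fell in AI+E2 compared to AI (log2 difference -0.45, SE 0.092, adjusted p = 0.00346). Its further probe set gave 0.39, 0.49 and -0.33 for the same differences, and the last of these missed the threshold (adjusted p = 0.0506 over all probe sets).

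Rrm1, the other subunit, was 7.91, 7.98 and 8.12 in D12, 8.25, 8.21 and 8.15 in VEH, 8.33, 8.44 and 8.25 in AI and 8.37, 8.25 and 8.36 in AI+E2. It was higher than D12 in AI (log2 difference 0.34, SE 0.070, adjusted p = 0.0069) and in AI+E2 (log2 difference 0.32, SE 0.070, adjusted p = 0.00572), and all arrays of day 16 were above all those of day 12. Its further probe set, at a mean of 5.05, had differences of -0.047 and -0.038, and with the mean of both probe sets neither call was made. Tyms was 8.29, 8.23 and 8.39 in D12, 8.07, 8.16 and 8.14 in VEH, 8.50, 8.61 and 8.30 in AI and 8.24, 8.28 and 8.34 in AI+E2. Its VEH arrays were the lowest of the 12, unlike those of any other gene of this group, and it rose in AI compared to VEH (log2 difference 0.35, SE 0.075, adjusted p = 0.00356). Pcna, the clamp of the DNA polymerase, was 7.74, 7.62 and 7.94 in D12, 7.95, 7.98 and 8.09 in VEH, 8.18, 8.17 and 7.77 in AI and 7.84, 7.62 and 8.17 in AI+E2. The arrays of AI and of AI+E2 each spread over more than those of VEH, and the log2 difference between VEH and D12 did not pass (0.24, 95% confidence interval -0.037 to 0.52). Pcna passed in 0 of the 6 comparisons in limma, also without adjustment, and by the methods' t-test.

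The licensing factors Cdc6 and Cdt1, which load the helicase at origins, and the helicase subunits Mcm2, Mcm5, Mcm6 and Mcm7 passed in 0 of the 6 comparisons in limma and by the methods' t-test. Their log2 differences from D12 to VEH were 0.030 for Cdc6, -0.15 for Cdt1, 0.22 for Mcm2, 0.081 for Mcm5, 0.027 for Mcm6 and 0.23 for Mcm7. At an unadjusted p under 0.05, 2 of the 6 were higher, and at most 1 in each other comparison. In AI compared to VEH their differences ran from -0.098 to 0.17 and in AI+E2 compared to AI from -0.15 to 0.021. Mcm7 had the widest of these differences and was higher in 3 of the 6 comparisons at an unadjusted p under 0.05.

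The D cyclins, which bind CDK4 and CDK6 in G1, moved in opposite directions with AI. Ccnd2, a cyclin of granulosa and luteal cells, was 10.65, 10.50 and 10.76 in D12, 10.85, 11.20 and 10.70 in VEH, 11.74, 11.69 and 11.54 in AI and 10.72, 10.69 and 10.74 in AI+E2. All AI arrays were above all others, VEH replicate 2 stood apart from the other VEH arrays, and the AI+E2 arrays lay within the range of D12. Ccnd2 rose 1.68-fold in AI compared to VEH (log2 difference 0.74, SE 0.10, adjusted p = 1.01e-04) and was 2.03-fold higher than in D12 (log2 difference 1.02, SE 0.10, adjusted p = 2.07e-05). It fell in AI+E2 compared to AI (log2 difference -0.94, SE 0.10, adjusted p = 1.47e-05). Between AI+E2 and VEH it did not pass (-0.20, 95% confidence interval -0.42 to 0.022), and between VEH and D12 it passed only without VEH replicate 3 (0.38, adjusted p = 0.0300).

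Ccnd1 was 8.34, 8.37 and 8.32 in D12, 8.80, 8.51 and 8.76 in VEH, 8.26, 8.39 and 8.28 in AI and 8.13, 8.12 and 8.02 in AI+E2. The VEH arrays were the highest and the AI+E2 arrays the lowest, with D12 and AI overlapping between them. Ccnd1 rose from D12 to VEH (log2 difference 0.34, SE 0.074, adjusted p = 0.00745), fell in AI compared to VEH (log2 difference -0.38, SE 0.074, adjusted p = 0.00197) and was 1.52-fold lower in AI+E2 than in VEH (log2 difference -0.60, SE 0.074, adjusted p = 4.93e-05). It was also lower in AI+E2 than in D12 (log2 difference -0.26, SE 0.074, adjusted p = 0.0323), although this call was lost in each of the 6 fits that left out 1 array. Between AI+E2 and AI its difference missed the threshold (-0.22, adjusted p = 0.0601), and it passed in the fit of these groups alone (adjusted p = 0.0306).

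The E cyclins and E2f1 changed little. Ccne2 was 5.02, 4.98 and 5.09 in D12, 5.19, 5.22 and 5.18 in VEH, 5.19, 5.22 and 5.01 in AI and 5.24, 5.21 and 5.31 in AI+E2, and it was higher in AI+E2 than in D12 (log2 difference 0.22, SE 0.064, adjusted p = 0.0339), a call lost in 4 of the 6 fits that left out 1 array. Only AI replicate 3 of the day 16 arrays lay in the range of D12. E2f1, the transcription factor released at the end of G1, was 5.61, 5.51 and 5.62 in D12, 5.69, 5.67 and 5.60 in VEH, 5.67, 5.57 and 5.69 in AI and 5.55, 5.63 and 5.57 in AI+E2. The groups overlapped, and neither E2f1 nor Ccne1 passed in any of the 6 comparisons in limma or by the methods' t-test, with 1 unadjusted p under 0.05, that of Ccne1 between AI+E2 and VEH (-0.12, adjusted p = 0.18).

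Other genes of the cycle, in lists that were not part of the 42, were read in the same fit. Of all genes, 6.91% rose and 3.23% fell from D12 to VEH. In AI compared to VEH these shares were 5.91% and 11.0%. In AI+E2 they were 8.65% and 4.13% compared to AI and 6.11% and 6.90% compared to VEH. From D12 they were 3.30% and 4.27% in AI and 7.52% and 4.58% in AI+E2. Counts in these lists stand beside these shares and are not read as results about a list. Of 28 other G2 and M genes, 5 rose and 0 fell from D12 to VEH, with a median log2 difference of 0.15. Among them were the chromosome kinesin Kif22 (0.77, adjusted p = 2.31e-05), the kinetochore gene Ndc80 (0.41, adjusted p = 3.50e-04) and the securin Pttg1 (0.45, adjusted p = 0.00123). In AI compared to VEH 4 fell and 1 rose, with Kif22 (-0.71, adjusted p = 1.78e-05), Ndc80 (-0.22, adjusted p = 0.0179) and the checkpoint gene Mad2l1 (-0.25, adjusted p = 0.0254) the smallest in p. In AI+E2 compared to VEH 2 fell, Kif22 (-0.81, adjusted p = 8.05e-06) and Ndc80 (-0.31, adjusted p = 0.00219), and compared to AI 1 fell, the mitotic kinase Pbk (-0.43, adjusted p = 0.00382). From D12, 3 rose in AI, Pbk (0.51, adjusted p = 0.00175), Pttg1 (0.29, adjusted p = 0.0285) and the centromere gene Incenp (0.26, adjusted p = 0.0403), and 2 in AI+E2, the chromosome kinesin Kif4a (0.27, adjusted p = 0.0131) and Pttg1 (0.31, adjusted p = 0.0137). Of 22 other S phase genes, 0 passed from D12 to VEH, where 2 were higher at an unadjusted p under 0.05. Dut, which clears dUTP, fell in AI compared to VEH (-0.26, adjusted p = 0.0451), and Chaf1b, a histone chaperone subunit, was higher in AI+E2 than in VEH (0.32, adjusted p = 0.0065) and D12 (0.50, adjusted p = 2.22e-04), and in AI than in D12 (0.28, adjusted p = 0.0246).

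Of 10 G1 kinases, E2F partners and MYC genes, 2 rose from D12 to VEH, the third D cyclin Ccnd3 (0.32, adjusted p = 0.00187) and its kinase Cdk4 (0.46, adjusted p = 0.00361). In AI compared to VEH 3 fell and 1 rose, and Ccnd3 (-0.31, adjusted p = 0.00108), Cdk4 (-0.43, adjusted p = 0.00285) and the kinase Cdk6 (-0.28, adjusted p = 0.0226) were those that fell. In AI+E2 compared to AI 3 rose and 1 fell. The phosphatase Cdc25a was 1.76-fold higher (0.82, adjusted p = 3.62e-04), Ccnd3 rose (0.27, adjusted p = 0.00466), and E2f5, a repressive E2F, fell (-0.82, adjusted p = 0.00585). Compared to VEH, Cdk4 was lower (-0.43, adjusted p = 0.00399) and Cdc25a higher (0.49, adjusted p = 0.016) in AI+E2. Compared to D12, 3 were higher in AI+E2, Cdc25a (0.86, adjusted p = 2.90e-04), Ccnd3 (0.27, adjusted p = 0.00432) and E2f3 (0.35, adjusted p = 0.0291), an activating E2F, and 0 of 10 passed in AI in limma, with 1 higher and 0 lower at an unadjusted p under 0.05.

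Brakes on the cycle held the widest change of all these lists. Of 14 measured, 3 rose from D12 to VEH, and Cdkn2c, the inhibitor of CDK4 and CDK6 known as p18, rose 3.12-fold (log2 difference 1.64, SE 0.11, adjusted p = 9.46e-08). Cdkn2c fell in AI (log2 difference -1.73, SE 0.11, adjusted p = 2.25e-08) and in AI+E2 (log2 difference -1.71, SE 0.11, adjusted p = 5.61e-08) compared to VEH. The other risers from D12 to VEH were the phosphatase Cdkn3 (0.59, adjusted p = 0.00397), whose transcript is itself made in dividing cells, and Btg1 (0.21, adjusted p = 0.038), a gene of resting cells. Rbl2, the pocket protein p130, fell in AI (-0.70, adjusted p = 2.58e-06) and AI+E2 (-0.70, adjusted p = 4.89e-06) compared to VEH, and Ccng2, a cyclin of arrested cells, rose in AI (0.48, adjusted p = 8.67e-04), with 4 falls and 2 rises in all in AI compared to VEH. In AI+E2 compared to AI 3 rose and 0 fell, the inhibitors Cdkn1b (0.48, adjusted p = 3.61e-04) and Cdkn1a (0.47, adjusted p = 7.04e-04) and the retinoblastoma gene Rb1 (0.44, adjusted p = 0.00579). Cdkn1b was higher in AI+E2 than in VEH as well (0.58, adjusted p = 7.55e-05), one of 4 rises beside 2 falls. From D12, AI had 2 rises, Cdkn3 (0.50, adjusted p = 0.0158) and Ccng2 (0.32, adjusted p = 0.0309), and the fall of Rbl2 (-0.51, adjusted p = 2.07e-04), and AI+E2 had 4 rises, among them Cdkn1b (0.38, adjusted p = 0.00309) and Btg1 (0.28, adjusted p = 0.00528), and the fall of Rbl2 (-0.51, adjusted p = 1.20e-04).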

How the data were processed

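Luteal RNA of 12 rats, 1 on each array, was read from the deposited table of log2 values, made by the authors with RMA (R 2.12.2, per the submitters' processing notes). RMA subtracts background, equalises the arrays and combines the probes of a probe set, which can compress differences of dim probe sets. Medians of the arrays were 6.51 to 6.56. The set of arrays that RMA equalised as 1 batch is not known here. Of 29214 probe sets, 15310 had 1 gene symbol in the platform annotation, 323 had several and 13581 had none, and only the first kind was named. For 527 genes with several probe sets, the one with the highest mean was used, which left 14506 genes. Of the gene identifiers, 15279 were found in RefSeq. The fit of all 14506 genes used limma 3.58.1 (R 4.3.3), with a mean for each group and 8 residual degrees of freedom, and p values were adjusted by Benjamini and Hochberg over all genes. Differences are group means of log2 values, with standard errors (SE) from the fit. The 3 arrays of a group were from separate animals, and their number limits the precision. The fit was tested on simulated data with independent noise. Recovery was required there only at 2-fold, a size that 1 of the 37 calls reached. Smaller changes were simulated too, and their recovery is not given here. Alternatives left out each array, blocked on replicate number, dropped dim genes, changed the probe set, the scaling or the groups fitted, or used the methods' t-test. All genes of the set are accounted for, and array values are given for those called in any comparison and for Ccnd1, Ccnd2, Pcna, Top2a, Cdk1, Ccnb1 and E2f1. From each other list, up to 3 called genes of smallest p per comparison are named. Foxm1, Bub1 and Nek2 were named after their values were seen. The members and lists were chosen with earlier results of these data known. Promoters are from RefSeq (GRCr8). Figures were drawn with matplotlib 3.10.9 in Python 3.11.15.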

Additional observations from a re-analysis of the deposited data

How the results depend on the processing

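Of 847 recomputed values of single members, 731 kept their direction and their side of the threshold, 106 lost the call, 5 gained it and 5 changed sign. The sign changes came from leaving out 1 array. Pcna in AI against VEH ran from -0.035 without AI replicate 1 to 0.17 without AI replicate 3, and was -0.031 without AI replicate 2. E2f1 in AI against VEH ran from -0.036 without VEH replicate 3 to 0.026 without AI replicate 2, and was 0.0094 without VEH replicate 1. Top2a in AI+E2 against AI ran from -0.014 without AI replicate 3 to 0.18 without AI replicate 2. Counts of calls are given for VEH minus D12, AI minus VEH, AI+E2 minus AI, AI+E2 minus VEH, AI minus D12 and AI+E2 minus D12, in this order, where they were 11, 7, 5, 5, 4 and 5. Without the 50% of genes of lowest signal, which left 8 members, they were 2, 3, 2, 1, 2 and 3, and the median of AI against D12 was 0.22. Without the lowest 25%, which left 28 members, AI against VEH gave 4 and AI+E2 against D12 gave 3. The methods' t-test, at an unadjusted p under 0.05 and without the study's fold cut-off, gave 18, 10, 7, 11, 7 and 8 of 38 members. Of all genes it gave 15.5%, 22.1%, 22.5%, 20.5%, 13.3% and 20.7%. After Benjamini-Hochberg adjustment, which the study also applied, it gave 1, 1, 1, 1, 1 and 0 members. A fit of the compared groups alone gave 8 in AI+E2 against VEH, with Rrm2, Prc1 and Tpx2 added. Leaving out 1 array gave 6 to 13, 5 to 8, 3 to 5, 2 to 5, 4 to 7 and 1 to 4. The medians of the set then ran from 0.14 to 0.21, -0.073 to -0.023, -0.050 to -0.029, -0.11 to -0.085, 0.078 to 0.14 and 0.0094 to 0.082. With the replicate block, the counts were 11, 6, 5, 6, 4 and 2. The labels do not say whether the numbers pair the rats. Deviations of arrays with the same number correlated at -0.486 to 0.339, over 0.1 in 4 of 18 pairs. With 3 arrays in a group these correlations cannot settle the matter. The cause of these changes was not tested, apart from the fewer members tested without dim genes. Signal over background is not given in the file, so that small differences of dim probe sets cannot be told from their floor.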
